A study of Mus musculus with 2 samples.

Results

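The genes of heat shock proteins and chaperones were examined in CFU-E cells (erythroid colony-forming units), which are committed red cell progenitors, from mouse embryos without the erythropoietin receptor. They were taken by symbol: the HSP70, HSP90 and small heat shock protein genes (beginning Hspa, Hspb or Hsp90), Hsph1, Hspd1, Hspe1, the J-domain genes (beginning Dnaja, Dnajb or Dnajc), the subunit genes of the CCT chaperonin (Tcp1 and Cct2 to Cct8), Hsf1, Hsf2, Bag3, Ahsa1 and Chordc1. Among the 17874 genes measured, 86 matched, each measured by 1 probe set. Hsf1 and Hsp90ab1 were not analysed here. Cct8l1, a Cct8-like gene, was taken in by the start of its symbol and was below the floor defined below.

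Both samples came from EpoR-/- BALB/c embryos, with the livers of gestational day 13.5 pooled by 40 to 50 for the sort. Red cells were lysed, and antibodies removed cells bearing surface markers of late erythroid, lymphoid, megakaryocytic or myeloid cells. Both samples were then kept without growth factors for 1 h in Panserin 401 with albumin and 2-mercaptoethanol at 37°C. The 3 h sample (1 array) stayed for a further 3 h in Panserin 601 with no added growth factor, and the 0 h sample (1 array) was lysed at once. For the 3 h sample the label speaks of supplemental growth factors, against the protocol, and the genotype label names Epo where the protocol names its receptor. Only the 0 h sample carries a strain label. The samples are called by their time, and every difference is the log2 value at 3 h less the one at 0 h. Each group is a single array, so no value below carries a replicate error, no test was made, and precision is limited by the number of arrays.

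Chaperones bind unfolded or partly folded proteins and let them fold, assemble or be degraded. HSP70 proteins work in cycles of ATP hydrolysis that J-domain (DNAJ) proteins start and exchange factors such as the HSP110 proteins complete. HSP90 acts on nearly folded clients such as kinases and steroid receptors, and the ring-shaped chaperonins HSP60 (in mitochondria) and CCT (in the cytosol) enclose their substrates. Under proteotoxic stress the transcription factor HSF1 binds heat shock elements, inverted repeats of GAA, and raises the cytosolic chaperone genes. Chaperone genes of the endoplasmic reticulum answer instead to the unfolded protein response through ER stress elements. In human erythroid precursors nuclear HSP70 is known to protect the transcription factor GATA1 from caspases.

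The heat shock elements in the promoters of 6 members are shown first, because they show the element in genes from both sides of 0, with differences from -0.91 in Hsph1 to 0.92 in Hspb1. Dnajb1, the lowest member, had no match and is not shown. Each window holds the 250 bases before the annotated gene start and the first 50 bases of the gene, 5′ to 3′ on the gene's strand, from RefSeq on the build GRCm38.p6. Capitals mark matches to the 2-unit heat shock element GAANNTTC or TTCNNGAA, where N is any base. The windows are those of Hsph1 (chr5:149636266-149636565, minus strand), Chordc1 (chr9:18292017-18292316, plus strand), Hspe1 (chr1:55087898-55088197, plus strand), Dnajb6 (chr5:29735648-29735947, plus strand), Hspb1 (chr5:135887669-135887968, plus strand) and Hspa1b (chr17:34959189-34959488, minus strand).
Hsph1: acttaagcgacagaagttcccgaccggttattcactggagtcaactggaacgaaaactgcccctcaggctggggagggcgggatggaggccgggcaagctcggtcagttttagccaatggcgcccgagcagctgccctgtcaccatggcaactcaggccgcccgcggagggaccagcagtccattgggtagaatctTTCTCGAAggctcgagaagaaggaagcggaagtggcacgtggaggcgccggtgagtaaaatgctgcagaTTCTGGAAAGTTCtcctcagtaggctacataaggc
Chordc1: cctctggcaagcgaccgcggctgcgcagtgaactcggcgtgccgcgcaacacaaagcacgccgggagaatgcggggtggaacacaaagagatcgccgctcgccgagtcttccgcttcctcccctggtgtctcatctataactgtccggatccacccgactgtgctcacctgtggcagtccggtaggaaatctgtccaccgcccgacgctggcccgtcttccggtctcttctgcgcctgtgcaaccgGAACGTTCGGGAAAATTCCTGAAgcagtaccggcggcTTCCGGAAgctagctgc
Hspe1: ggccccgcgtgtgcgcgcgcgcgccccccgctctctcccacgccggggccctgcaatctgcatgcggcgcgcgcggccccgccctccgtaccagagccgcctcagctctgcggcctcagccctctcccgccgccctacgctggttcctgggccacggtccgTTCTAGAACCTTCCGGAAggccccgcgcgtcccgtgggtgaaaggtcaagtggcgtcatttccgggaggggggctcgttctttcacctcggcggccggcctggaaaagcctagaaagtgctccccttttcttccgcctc
Dnajb6: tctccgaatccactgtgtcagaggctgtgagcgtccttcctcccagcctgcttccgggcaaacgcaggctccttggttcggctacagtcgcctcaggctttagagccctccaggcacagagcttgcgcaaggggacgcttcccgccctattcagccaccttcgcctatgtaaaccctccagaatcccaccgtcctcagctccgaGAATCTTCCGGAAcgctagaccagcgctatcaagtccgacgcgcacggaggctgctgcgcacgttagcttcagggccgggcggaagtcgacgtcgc
Hspb1: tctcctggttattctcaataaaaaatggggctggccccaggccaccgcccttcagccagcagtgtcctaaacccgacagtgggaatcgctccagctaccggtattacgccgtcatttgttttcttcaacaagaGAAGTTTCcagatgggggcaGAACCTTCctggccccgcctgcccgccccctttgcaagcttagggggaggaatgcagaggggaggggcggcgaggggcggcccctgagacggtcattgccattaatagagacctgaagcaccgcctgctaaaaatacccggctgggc
Hspa1b: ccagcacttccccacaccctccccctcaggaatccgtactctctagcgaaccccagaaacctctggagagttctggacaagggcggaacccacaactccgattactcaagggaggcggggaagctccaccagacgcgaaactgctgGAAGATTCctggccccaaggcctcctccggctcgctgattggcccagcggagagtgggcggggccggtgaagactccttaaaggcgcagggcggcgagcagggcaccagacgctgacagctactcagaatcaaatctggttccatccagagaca
In Chordc1 an unbroken row of units lies across the start, and in Hsph1 a 3-unit element lies just after it. In Hspe1 the row lies before the start, and Hspb1 has a pair of separate 2-unit elements.

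The ER stress element, a CCAAT box and a CCACG box 9 bases apart, is shown for the ER chaperone genes Hspa5 (chr2:34771840-34772139, plus strand) and Hsp90b1 (chr10:86705395-86705694, minus strand), whose levels differed little between the samples. Capitals mark matches to CCAAT, any 9 bases and CCACG, on either strand, in windows of the same kind.
Hspa5: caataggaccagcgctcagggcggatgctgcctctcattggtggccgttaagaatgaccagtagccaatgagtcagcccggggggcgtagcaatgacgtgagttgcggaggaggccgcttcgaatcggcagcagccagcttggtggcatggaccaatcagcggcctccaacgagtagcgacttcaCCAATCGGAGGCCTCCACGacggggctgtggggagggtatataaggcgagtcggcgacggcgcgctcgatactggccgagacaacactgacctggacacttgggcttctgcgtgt
Hsp90b1: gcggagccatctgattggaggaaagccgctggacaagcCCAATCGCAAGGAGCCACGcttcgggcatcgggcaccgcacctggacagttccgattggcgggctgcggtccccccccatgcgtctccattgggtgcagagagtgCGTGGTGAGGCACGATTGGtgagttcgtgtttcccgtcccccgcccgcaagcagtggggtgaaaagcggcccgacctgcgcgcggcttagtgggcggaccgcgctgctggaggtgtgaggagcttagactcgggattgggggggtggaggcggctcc
Hspa5 has 1 match and Hsp90b1 has 2, of opposite orientation.

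Counts cover genes with at least 1 of their values at 5.70 or more, a floor set at the median over all genes and both arrays. Of the 86 chaperone genes 62 reached it, and of all genes 9284. Among the 62, 7 were at least 1.5-fold lower at 3 h and 1 was at least 1.5-fold higher, while of all genes with such a signal 4.80% were lower and 6.94% higher by that much. At least 2-fold, 1 member was lower (0.872% of all genes) and 0 were higher (2.00% of all genes). The 7 members make 11.3% of the 62 and the single higher member 1.61%. In either direction and of any size, 43 of the 62 were lower and 19 higher (40 lower after quantile normalization of the arrays against each other, and 41 after removal of an intensity trend), and of all genes 48.5% were lower. The median difference was -0.08 over the chaperone genes and 0.01 over all genes, whose differences had a robust SD of 0.31.

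Of the 7 lower genes 6 are on the list of heat-inducible cytosolic genes described below, and Dnajc22 is not. That list was chosen with earlier results of these data known, so the overlap is a description only. Dnajb1, a J-domain protein that starts the HSP70 cycle and a classical HSF1 target, had a log2 value of 10.61 at 3 h and 11.88 at 0 h. It was 2.40-fold lower at 3 h, rank 33 from the lowest difference among 9284 genes. Hsph1, an HSP110 exchange factor, had 11.26 at 3 h and 12.17 at 0 h (1.88-fold lower). Chordc1, an HSP90 co-chaperone, had 9.97 at 3 h and 10.83 at 0 h (1.82-fold lower). These genes had high values on both arrays, so their differences do not rest on signals near the floor.

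Hspa4l, a further HSP110 gene, had 7.09 at 3 h and 7.92 at 0 h (1.78-fold lower). Dnaja1, a major cytosolic J-domain gene, had 12.23 at 3 h and 12.97 at 0 h (1.66-fold lower). Hspa1b, one of the inducible HSP70 genes, had 10.72 at 3 h and 11.38 at 0 h (1.57-fold lower). The remaining gene past 1.5-fold was the J-domain gene Dnajc22, with 7.62 at 3 h and 8.56 at 0 h (1.93-fold lower). The probe sets of Hsph1, Hspa1b and Dnajc22 carry suffixes that mark possible matches to several transcripts or genes. Just past the threshold were Hspa1b (-0.65) and Dnaja1 (-0.73), and just short of it Hspa13 (0.51) and Hspa9 (-0.46).

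**Figure D1:**
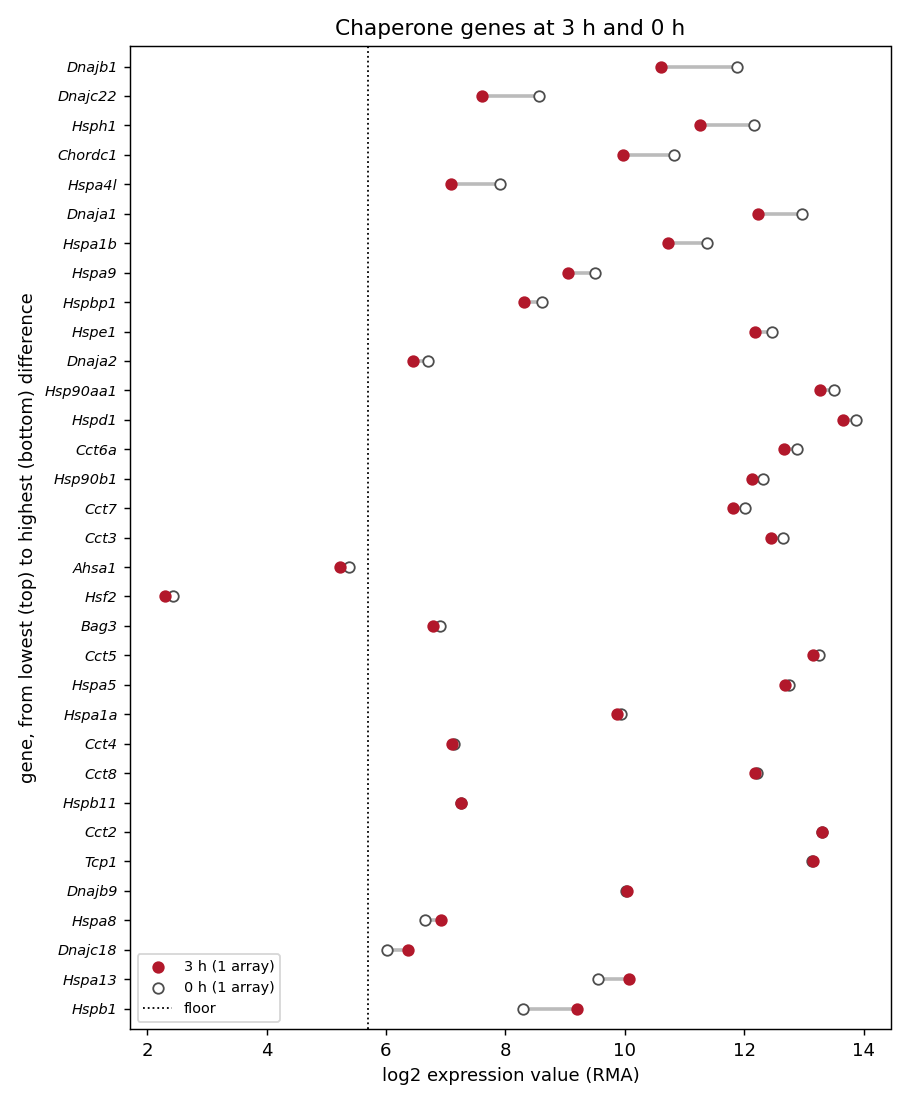
Log2 expression values (x axis) of the named chaperone genes (y axis) at 3 h (filled, 1 array) and 0 h (open, 1 array), ordered by difference, with the floor of 5.70 dotted. The 3 h value lies left of the 0 h value by 1.26 in Dnajb1 at the top and right of it by 0.92 in Hspb1 at the bottom.

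A list of 15 heat-inducible cytosolic genes was described as a group. It was chosen with earlier results of these data known, so its contrast with the other members is a description only. It also holds Hspa8, the constitutive HSP70 gene. Of these 14 were measured and 12 reached the floor, with 6 at least 1.5-fold lower (Dnajb1, Hsph1, Chordc1, Hspa4l, Dnaja1 and Hspa1b) and 1 higher (Hspb1). By the same threshold 4.80% of all genes were lower and 6.94% higher. Measured on the list but below the floor were Hspb8, with the list's largest difference (1.46), and Ahsa1 (-0.16). The median difference of the list was -0.45 (-0.20 with no floor, and -0.73 without probe sets of the suffixes s, x or a), against -0.06 for the 50 other members at or above the floor and 0.01 for all genes. Of those 50 members, 1 was at least 1.5-fold lower (Dnajc22) and 0 were higher. Within the list the genes did not move as 1 block. Hspa8 (0.26), Dnajb4 (-0.03), Hspa1a (-0.06) and Bag3 (-0.12) differed by less than 1.5-fold, and so did Hsp90aa1 (-0.24). The signals of Hspa8 (6.91 at 3 h, 6.66 at 0 h) and Bag3 (6.79 at 3 h, 6.91 at 0 h) were dim.

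**Figure D2:**
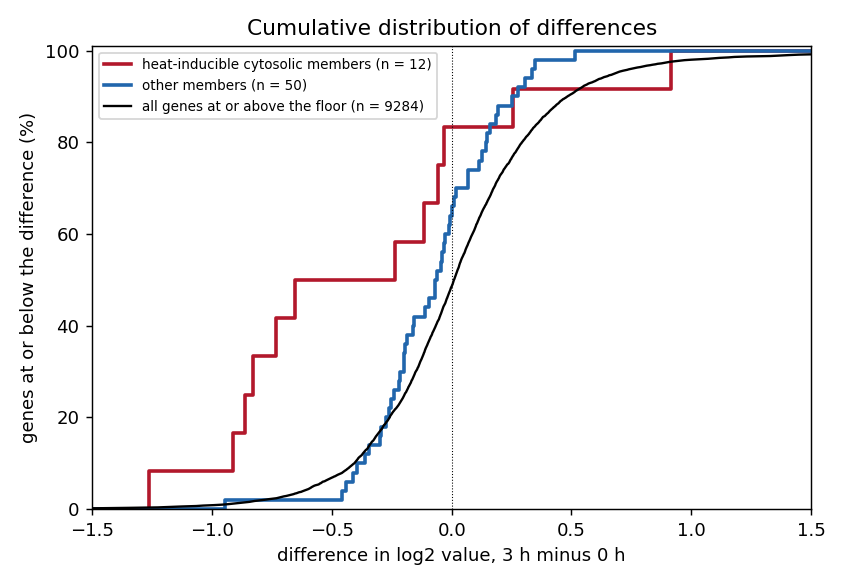
Cumulative share (%) of genes at or below each log2 difference, 3 h minus 0 h, for 12 heat-inducible cytosolic members (red), the 50 other members (blue) and all 9284 genes at or above the floor (black). From its lowest gene up to a difference of 0 the red line lies left of the others, with 50.0% of its genes at least 1.5-fold lower, and the blue line follows the black one more closely. The list behind the red line was chosen with earlier results of these data known.

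The HSP70 and HSP110 family had 14 measured genes, of which 11 reached the floor. Of these 9 were lower at 3 h (8 after quantile normalization) and 2 higher, while of all genes 48.5% were lower. The family's median was -0.41, the lowest among the families with more than 3 genes at or above the floor. The HSP110 genes Hsph1, Hspa4l and Hspa4 (7.88 at 3 h, 8.29 at 0 h) were all lower. The paralogs Hspa1a and Hspa1b, which encode nearly the same inducible HSP70 and lie next to each other on chromosome 17, gave unlike values: Hspa1a had 9.87 at 3 h and 9.93 at 0 h. Their probe sets can share signal, so the 2 genes cannot be told apart with certainty here. Hspa8, the constitutive HSP70, had 6.91 at 3 h and 6.66 at 0 h by its single probe set. With so dim a signal the value says little about whether the gene's transcripts differed.

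HSP70 genes of other compartments lay on both sides of 0. Hspa9, the mitochondrial HSP70, had 9.05 at 3 h and 9.50 at 0 h. Hspa5, which encodes the ER chaperone BiP, had 12.69 at 3 h and 12.75 at 0 h, and turned to a difference of 0.02 after quantile normalization. Hspa13, an HSP70-like gene of the ER, had the highest difference (0.51) of the family's genes that reached the floor, with 10.07 at 3 h and 9.55 at 0 h. Hspa14, which belongs to the ribosome-associated chaperones, differed by -0.24 and Hspa2 by -0.44. Hspa2 reached the floor only at 0 h (5.53 at 3 h, 5.97 at 0 h). Hspa12b was below the floor, with 5.53 at 3 h and 4.29 at 0 h.

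Among the regulators of HSP70, the exchange factor gene Hspbp1 had 8.32 at 3 h and 8.61 at 0 h. Bag3, which links HSP70 to small heat shock proteins and autophagy, had 6.79 at 3 h and 6.91 at 0 h. Hspbap1 was below the floor (5.65 at 3 h, 5.40 at 0 h). Hsf2, a heat shock transcription factor gene, was measured by 1 probe set and was below the floor, with 2.30 at 3 h and 2.43 at 0 h. A single dim probe set says little about whether such a gene is expressed.

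The HSP90 genes differed little by comparison with the co-chaperone Chordc1. Hsp90aa1, the inducible cytosolic HSP90, had 13.27 at 3 h and 13.51 at 0 h. Hsp90b1, the ER form, had 12.12 at 3 h and 12.32 at 0 h. Array signals can saturate at such levels and may understate differences. Ahsa1, which activates the HSP90 ATPase, was below the floor (5.22 at 3 h, 5.39 at 0 h).

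The J-domain genes fall into 3 classes. Each of the 3 DNAJA genes above the floor was lower, with Dnaja1 followed by the mitochondrial Dnaja3 (8.37 at 3 h, 8.73 at 0 h) and Dnaja2 (6.45 at 3 h, 6.70 at 0 h), and a median of -0.36. Dnaja4 was below the floor on both arrays (difference -0.60). Among the 7 DNAJB genes, Dnajb1 stood alone: the 6 others lay between -0.09 (Dnajb2) and 0.02 (Dnajb9), and the family's median was -0.04. Those 6 include Dnajb6, an inhibitor of protein aggregation, and the ER genes Dnajb9 and Dnajb11.

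The DNAJC class, whose members recruit HSP70 to particular tasks, went both ways. Of its 27 measured genes 23 reached the floor, 13 higher (56.5%) and 10 lower (43.5%), with a median of 0.07. Of all genes at or above the floor 51.5% were higher and 48.5% lower, so the class was split much as all genes were. The mean of the class was -0.01, and with the floor raised by 1 log2 unit its median was -0.069. Below Dnajc22, the lowest were Dnajc12 (-0.39), a partner of aromatic amino acid hydroxylases, Dnajc15 (-0.35), which acts in mitochondrial protein import, and Dnajc21 (-0.30), which acts in ribosome assembly. The highest were Dnajc18, with 6.37 at 3 h and 6.02 at 0 h, and the endosomal gene Dnajc13, with 8.95 at 3 h and 8.62 at 0 h. Dnajc7, which binds both HSP70 and HSP90, had 10.43 at 3 h and 10.15 at 0 h, while Dnajc8 of the splicing machinery (0.19) and the histone chaperone gene Dnajc9 (0.07) differed less.

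**Figure D3:**
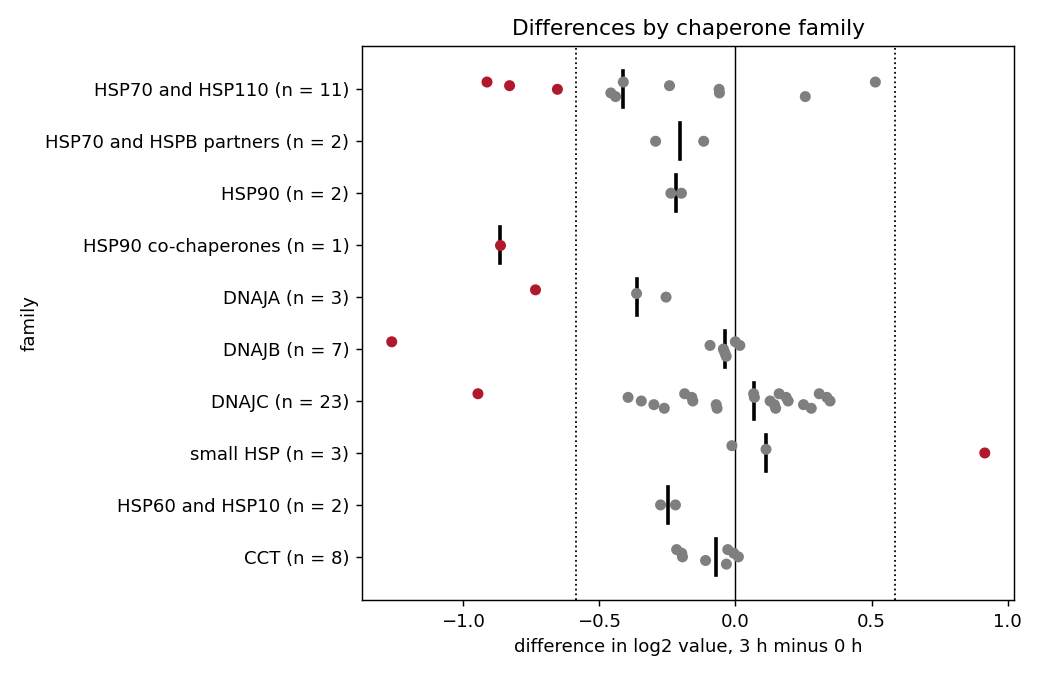
Log2 differences, 3 h minus 0 h (x axis), of the 62 members at or above the floor by family (y axis), with a bar at each family's median and dotted lines at 1.5-fold. Points past 1.5-fold are red: 7 lie on the lower side, 3 of them in the HSP70 and HSP110 family, and Hspb1 alone lies on the higher side.

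Small heat shock proteins hold unfolded proteins without ATP, and their genes included the only member at or above the floor that was at least 1.5-fold higher. Hspb1, which encodes HSP25 in the mouse, had 9.21 at 3 h and 8.29 at 0 h (1.89-fold higher, rank 229 from the highest of 9284). Its probe set carries a suffix that marks possible matches to several genes. Hspb8, the partner of Bag3, was 1.46 higher on the log2 scale but below the floor, with 5.19 at 3 h and 3.73 at 0 h. Hspb6 (0.11) and Hspb11, which despite its name acts in intraflagellar transport (-0.01), differed little. Of the 8 small heat shock protein genes measured, 3 reached the floor, so the family's median of 0.11 rests on 3 genes. Cryab, a small heat shock protein gene outside the symbols used, had 6.02 at 3 h and 4.53 at 0 h (2.81-fold higher) and was below the floor at 0 h.

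The chaperonin genes were mostly lower, each by less than 1.5-fold. The mitochondrial pair Hspd1 (HSP60) and Hspe1 (HSP10) had 13.65 and 12.18 at 3 h, against 13.87 and 12.46 at 0 h, differences of -0.22 and -0.28. These genes are transcribed in opposite directions from a shared promoter on chromosome 1, and 285 bases of their windows are the same DNA. Of the 10 CCT genes 8 reached the floor, 7 lower and 1 higher (5 lower under either rescaling), and 0 differed by 1.5-fold. They ranged from -0.22 in Cct6a (12.67 at 3 h, 12.89 at 0 h) to 0.01 in Tcp1 (13.15 at 3 h, 13.14 at 0 h), with Cct7 (-0.20), Cct3 (-0.19), Cct5 (-0.11), Cct4 (-0.03), Cct8 (-0.03) and Cct2 (-0.01) between them. After quantile normalization the differences were 0.08 for Cct2 and 0.0079 for Cct8. The median of the 8 genes was -0.07, and Cct6b, a testis-expressed paralog of Cct6a, was below the floor. Cct4 had by far the dimmest signal of the 8 (7.11 at 3 h, 7.14 at 0 h), so its small difference says little.

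Members were also listed by compartment, on lists that do not place every member. The 8 listed mitochondrial members at or above the floor had a median of -0.25, with 6 lower and 2 higher. The 9 listed ER members had a median near 0 (-0.0004), with 5 lower (4 after quantile normalization) and 4 higher. The ER list leaves out some J-domain genes, such as Dnajc14 (0.31), Dnajc16 (0.16) and Dnajc18 (0.35). These were all higher at 3 h, so the list's median near 0 and its counts depend on which genes it holds. Dnajc10, an ER disulfide reductase, differed by 0.19 and Dnajc3, an ER co-chaperone, by -0.07. The 5 members listed for the nucleus and RNA processing had a median of -0.07. In each of these 3 groups 0 genes differed by 1.5-fold.

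Co-chaperone genes outside the symbols used were described by the same counts. Of 21 cytosolic co-chaperone genes that reached the floor 16 had lower values at 3 h and 5 had higher ones (48.5% of all genes were lower). The median was -0.15, and 1 was at least 1.5-fold lower (4.80% of all genes). That gene was Nudc, an HSP90-associated factor, with 9.58 at 3 h and 10.27 at 0 h. Next were Fkbp4 (-0.49), an HSP90-binding immunophilin, and the HSP70 regulator gene Bag2 (-0.49). For 13 genes of prefoldin and of tubulin folding the median was 0.12, with Tbce (0.57) highest and the prefoldin subunit genes Pfdn2 (-0.50) and Pfdn6 (-0.44) lowest.

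Of 16 other ER chaperone genes 14 were lower (13 after quantile normalization), with a median of -0.13, and the disulfide isomerase gene Pdia4 (-0.55), Sdf2l1 (-0.55) and Hyou1 (-0.41) lowest. Of 13 other mitochondrial chaperone and protease genes 10 were lower (9 after quantile normalization), with a median of -0.21 and the protease gene Clpp (-0.49), Bcs1l (-0.43) and Htra2 (-0.36) lowest. In these 2 lists 0 genes differed by 1.5-fold. Among all genes 48.5% were lower, with a median of 0.01.

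Promoter windows were found for 72 of the 86 members and for 50 of the 62 at or above the floor, by symbol. The 2-unit heat shock element was found in 22 of the 72 (30.6%), and in 17.0% of all 27025 genes with a window. The 3-unit element has a further inverted GAA unit after the next NN, so each match contains 2 overlapping 2-unit matches. It was found in 5 of the 72 (6.94%) and in 0.662% of all genes. The 5 were Hsph1, Chordc1, Hspd1, Hspe1 and Dnajb6, with differences of -0.91, -0.86, -0.22, -0.28 and -0.04. Hspd1 and Hspe1 hold the same matches, seen from either side.

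Of the 7 members at least 1.5-fold lower 6 had a window, and 4 of these held the 2-unit element: Hsph1, Chordc1, Dnaja1 and Hspa1b. Among all 7610 genes at or above the floor with a window 13.5% held it. Dnajb1, the lowest member, and Hspa4l had no match to these letters in their windows. Of the 44 other members at or above the floor with a window 13 held it, among them Hspb1, which was higher at 3 h, and Hspa1a, with its match at the same distance from the start as in Hspa1b. Outside the chaperone genes 38 genes at or above the floor held the 3-unit element. Their median difference was 0.07, with 15 of them lower, 1 at least 1.5-fold lower and 3 at least 1.5-fold higher. The 2-unit element was held by 1014 such genes, of which 58 (5.72%) were at least 1.5-fold lower and 77 higher, with a median of 0.0068. For comparison, the 9284 genes that reached the floor, with or without a window, had shares of 4.80% lower and 6.94% higher at 1.5-fold. Their median was 0.01, and 48.5% of them had a negative difference.

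The ER stress element was found in 3 of the 72 members (Hspa5, Hsp90b1 and Dnajc3) and in 0.137% of all genes. These members differed by -0.06, -0.20 and -0.07. A match describes the sequence and does not show that a factor binds there.

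**Figure D4:**
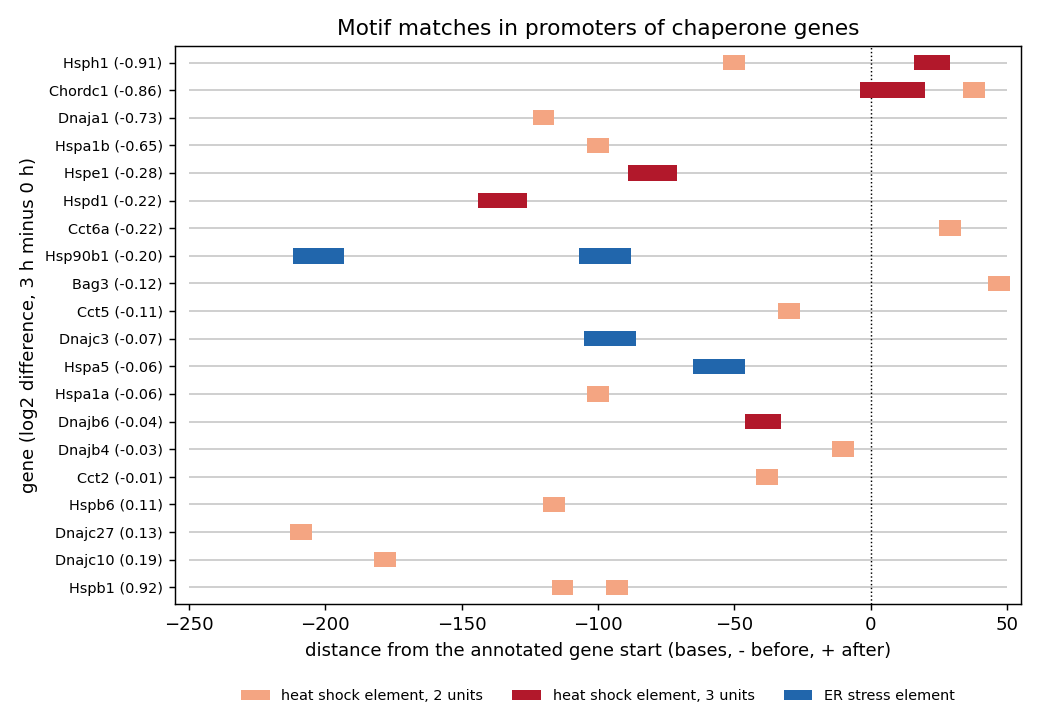
Matches to the 2-unit (orange) and 3-unit (red) heat shock element and the ER stress element (blue) by distance in bases from the annotated gene start (x axis), for the members at or above the floor that hold one, ordered by log2 difference, 3 h minus 0 h (in brackets). The members run from Hsph1 (-0.91) at the top to Hspb1 (0.92) at the bottom, and Dnajb1 and Hspa4l, which have no match, are not drawn.

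Cell type markers differed between the same arrays. Of 10 granulocyte markers 9 reached the floor at 3 h and 6 at 0 h, and their summed level on the linear scale was 12450 at 3 h and 6459 at 0 h. Of 11 macrophage markers 4 reached it on each array (sums of 2258 at 3 h and 1466 at 0 h), and C1qa, C1qb, C1qc and Adgre1 were below it on both. Of the 4 genes 3 were higher at 3 h, Lyz2 by the most (1.83), and Vcam1 was lower (-0.98). All 16 hepatocyte markers reached the floor on both arrays, with sums of 106315 at 3 h and 112743 at 0 h. Of these 16 genes 14 were lower (median -0.18), among them Apob (-0.79), Apoc1 (-0.75) and Hnf4a (-0.70) by at least 1.5-fold, while Krt8 (0.95) and Krt18 (0.88) were higher by at least 1.5-fold. All 11 measured erythroid progenitor markers reached the floor on both arrays, with sums of 14867 at 3 h and 11842 at 0 h. Of these 11 genes 9 were higher, 4 of them by at least 1.5-fold, and 2 were lower (median 0.13). Epor, whose probe set cannot be placed relative to the deleted part, had 6.89 at 3 h and 7.08 at 0 h. Of 7 megakaryocyte markers 4 reached the floor at 3 h and 1 at 0 h, and of 7 lymphoid markers 1 at 3 h and 0 at 0 h. The 4 megakaryocyte genes were Gp1bb (2.19), Gp9 (0.47), Pf4 (0.07) and Itga2b (-0.09), so Pf4 crossed the floor by a small difference. The lymphoid gene was Ighm (0.74), which at 0 h lay just below the floor (5.699 against 5.702). The part of these cells in the chaperone values was not tested, and in such samples fewer cells of a type and less RNA per cell cannot be told apart.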

How the data were processed

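RNA of 2 samples of CFU-E cells, 1 from 3 h and 1 from 0 h, was measured on Affymetrix arrays. According to the protocols in the labels, 1.5 µg of total RNA went into each biotin labelling. The authors deposited log2 values, which the submitters' processing notes credit to RMA and the affy package. Neither versions nor the set of arrays normalized together is given there. RMA gives all arrays 1 distribution, so a shift of all transcripts could not be seen, and it shrinks differences of dim signals.

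Groups came from the sample titles. Of 20666 probe sets 17918 had 1 gene in the platform annotation, 79 several and 2669 none. Those with 1 gene were averaged per symbol to 17874 genes, without further normalization, and all 86 member symbols matched RefSeq (GRCm38.p6) by gene ID. Counts use the floor of 5.70 and a 1.5-fold threshold. No test was possible with 1 array per group. Named were all members past 1.5-fold at or above the floor, the highest and lowest of each family, a fixed list of core chaperone genes, and the 3 largest differences of each outside list. Others (such as Hspb8, Hspa12b, Dnaja3, Dnaja4 and the DNAJC genes beyond the extremes) were named after their values were seen. The members and lists were chosen with earlier results of these data known, and the ER stress element was added after the values were seen. Alternatives were another normalization, removal of an intensity trend, other probe set choices, other floors, the mean and a 2-fold threshold. The steps were tested on simulated data, with planted changes larger than the difference of any member and in genes well above the floor. Recovery of changes of the sizes reported here was not tested. Python 3.11.15 with numpy 2.4.6, pandas 2.3.3, statsmodels 0.14.6 and matplotlib 3.10.9 was used.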

Additional observations from a re-analysis of the deposited data

How the results depend on the processing

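With 1 array per group no replicate could be left out. No paired analysis was possible because each group has 1 array and nothing was tested. Each member has 1 probe set, so choosing the brightest could not move its values. Across the 8 other alternatives, 144 of 164 counts and medians stayed within 1.5 times the reported count or within 0.1 of the reported log2 median. Some of the 164 could not move. The mean equals the median in sets of 1 or 2 genes, and the count lower by any amount does not depend on the fold threshold. Other floors also leave sets of bright genes as they were, so the 144 overstate how stable the results are. Quantile normalization and removal of an intensity trend (loess with a span of 0.3) left the counts past 1.5-fold and the medians they gave within these bounds, as did a floor on both values, which left no gene in the list with Cryab. A single gene's difference can move only under the first 2 of these, by at most 0.0847 and 0.0569 among 33 named genes. There Cct2 and Cct8 turned under both and Hspa5 under quantile normalization. Without probe sets of the suffixes s, x or a, 41 members were left, of which 4 were at least 1.5-fold lower, 0 higher and 26 lower by any amount. The medians were then -0.24 for HSP70 and HSP110, -0.49 for DNAJA, -0.73 for the heat-inducible list and -0.066 for other mitochondrial genes. Fewer genes were tested there. With no floor 3 members were at least 1.5-fold higher, and the medians were -0.15 for HSP70 and HSP110, -0.51 for HSP90 co-chaperones, -0.48 for DNAJA, -0.20 for the heat-inducible list and -0.15 for the list with Cryab, which turned from 1.49 as it then held 4 genes in place of 1. With the floor 1 log2 unit higher (6.70) the medians were -0.069 for DNAJC and 0.45 for small heat shock proteins. At 2-fold 1 member was lower and 0 higher. The means were -0.30 for HSP70 and HSP110, -0.21 for DNAJB, which Dnajb1 alone sets apart from its median, and 0.34 for small heat shock proteins. An array has no read depth, and signals near the floor and at the top of the scale limit the differences that can be seen.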
